A study of Mus musculus with 11 samples.

Results

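The genes of oxidative phosphorylation were compared between mice fed a diet with cellulose (CD) and mice fed a fiber-free diet (FFD). The members were all gene symbols of the deposited read count table that name a subunit of complexes I to V by the usual prefixes, namely mt-Nd, mt-Co, mt-Atp and mt-Cytb for the mitochondrial genome and Nduf, Uqcr, Cox4 to Cox8, Atp5 and Sdha to Sdhd for the nucleus. The rule found 97 of 52550 genes, of which 13 are encoded by the mitochondrial genome and 84 by the nucleus, and it used no measured value. RNA came from epithelial cells of the colon of 5 CD and 6 FFD mice, with 1 library per mouse. Every mouse was a RAG1 KO on the C57BL/6 strain, which lacks the recombinase needed to make mature T and B cells, and every mouse stayed 4 weeks on its diet and then drank dextran sulphate sodium (DSS) for 5 days. DSS is a sulfated sugar polymer that damages the epithelium of the colon. All libraries therefore come from injured colons without mature lymphocytes, and neither mice without DSS nor mice with lymphocytes are among them. The authors report that RAG KO mice fed cellulose resisted colitis better than those fed no fiber. The degree of injury therefore cannot be told apart from the diet in these libraries. The labels give no age.

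Oxidative phosphorylation takes place in the inner mitochondrial membrane, where complexes I and II pass electrons through ubiquinone, complex III and cytochrome c to oxygen at complex IV, and complex V uses the resulting proton gradient to make ATP. Complexes I, III, IV and V are built from subunits of both genomes, while complex II is entirely nuclear. Absorptive cells of the colon are rich in mitochondria and oxidize butyrate, which gut microbes make from fiber. The mitochondrial messages are cut from long transcripts of both strands of a small circular genome. Most receive a poly(A) tail, so that they are read in libraries of poly(A) RNA such as these.

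Depth was 20853535 to 28588266 reads counted in genes per CD mouse and 10374154 to 27973285 per FFD mouse, with FFD mouse 4 the lowest. The labels hold a number that is 1 for all CD and 2 for all FFD mice, and anything it may stand for, such as a cage or batch, cannot be told apart from the diet. The tissue label was checked by markers, and epithelial genes were abundant (Epcam, 476247 counts over all mice). Cd3e and Cd3d of T cells had 18 and 14 counts in all, and Cd79a and Ms4a1 of B cells had 17 and 205. Rag1 itself had 8 to 40 counts per mouse, and whether these reads lie in the altered part of the gene was not analysed here. Levels are given as CPM, counts relative to the library's total after TMM scaling, a correction for differences in RNA composition. Differences are log2 fold changes of FFD over CD with their standard error (SE) from edgeR's quasi-likelihood test, and a gene is called changed at an adjusted p under 0.05 over all 15044 genes tested. Of all genes tested, 36.8% were called, 18.2% as higher and 18.6% as lower in FFD mice. These are whole-epithelium libraries, in which fewer cells of a type and less RNA per cell cannot be told apart.

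The annotated coding ends of the mitochondrial genes, which are not RNA ends measured here, show how tightly this genome is packed. The last 24 bases of 6 of them are given from the GENCODE M21 transcripts of GRCm38, with the last codon in capitals. mt-Co1 (chrM:5328-6872, + strand), mt-Nd3 (chrM:9459-9806, + strand) and mt-Nd6 (chrM:13552-14070, - strand) carry a full stop codon. mt-Co3 (chrM:8607-9390), mt-Nd4 (chrM:10167-11544) and mt-Cytb (chrM:14145-15288), all on the + strand, end in a lone T that becomes a stop codon only once the tail is added.
mt-Co1: ccaacctatgtaaaagtaaaaTAA
mt-Nd3: aaaggattagaatgaacagagTAA
mt-Nd6: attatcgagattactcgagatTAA
mt-Co3: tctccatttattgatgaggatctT
mt-Nd4: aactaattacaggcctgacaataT
mt-Cytb: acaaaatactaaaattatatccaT
All 13 genes are single-exon and protein-coding. Neighbours overlap by 43 bases between mt-Atp8 and mt-Atp6, by 7 between mt-Nd4l and mt-Nd4 and by 14, on opposite strands, between mt-Nd5 and mt-Nd6. No source used here gives the strand setting of the counting, so reads of mt-Nd6 and of RNA antisense to it cannot be told apart.

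Promoters of nuclear members are shown because NRF1 and the ETS protein GABP are known regulators of respiratory genes. RefSeq promoters (GRCm38.p6, 250 bases before to 50 after the start) were found for 66 of the 84 nuclear members. The NRF1 letters, GCGCA followed directly by their reverse complement and so the same on both strands, stand in 5 of the 71 promoters of these 66 genes (7.04%), against 0.971% of all 32851 promoters. The ETS letters CCGGAAG, searched on both strands, stand in 16 of the 71 (22.5%), against 8.86% of all promoters. Promoters are given, with any of these letters in capitals, for Cox6a1 (chr5:115348909-115349208), a subunit of complex IV whose level did not pass the test, for Atp5g2 (chr15:102670998-102671297) and Ndufs8 (chr19:3912725-3913024), which were lower in FFD mice, and for Ndufa6 (chr15:82354242-82354541), which was higher. All 4 are given from the - strand.
Cox6a1: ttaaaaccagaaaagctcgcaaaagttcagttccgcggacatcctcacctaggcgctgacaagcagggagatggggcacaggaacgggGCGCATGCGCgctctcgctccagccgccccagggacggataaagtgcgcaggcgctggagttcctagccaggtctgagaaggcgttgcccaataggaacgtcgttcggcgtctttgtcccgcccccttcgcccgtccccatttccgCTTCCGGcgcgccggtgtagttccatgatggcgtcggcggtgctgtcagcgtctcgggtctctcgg
Atp5g2: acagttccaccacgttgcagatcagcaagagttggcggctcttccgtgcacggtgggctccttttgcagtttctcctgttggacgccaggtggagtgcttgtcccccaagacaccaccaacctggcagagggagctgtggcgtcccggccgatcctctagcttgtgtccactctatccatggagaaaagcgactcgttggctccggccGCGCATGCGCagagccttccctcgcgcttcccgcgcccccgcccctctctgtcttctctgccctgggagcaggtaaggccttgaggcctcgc
Ndufs8: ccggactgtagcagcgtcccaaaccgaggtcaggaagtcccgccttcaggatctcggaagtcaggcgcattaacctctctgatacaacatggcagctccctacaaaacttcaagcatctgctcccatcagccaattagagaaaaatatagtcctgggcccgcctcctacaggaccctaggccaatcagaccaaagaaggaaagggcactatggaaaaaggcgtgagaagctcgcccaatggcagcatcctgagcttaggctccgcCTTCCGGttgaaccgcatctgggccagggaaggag
Ndufa6: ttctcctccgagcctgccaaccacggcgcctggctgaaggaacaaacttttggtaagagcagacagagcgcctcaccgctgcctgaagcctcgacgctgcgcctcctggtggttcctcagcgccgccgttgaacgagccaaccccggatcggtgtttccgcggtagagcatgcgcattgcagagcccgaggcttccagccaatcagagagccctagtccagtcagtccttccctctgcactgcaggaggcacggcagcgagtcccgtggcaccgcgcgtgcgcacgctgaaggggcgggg
The promoter of Ndufa6 holds neither set of letters, which says only that these exact letters are not in this window.

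The balance between the genomes differed between the diets. Messages of the 13 mitochondrial genes took a larger share of reads in FFD than in CD mice, and messages of the 84 nuclear genes a slightly smaller one. In CD mice 1 to 5 the mitochondrial members held 5.95, 4.11, 4.14, 3.78 and 4.56% of all counts, and in FFD mice the lowest, median and highest shares were 4.63, 5.66 and 6.00%. For the nuclear members the shares were 1.96 to 2.32% in CD mice and 1.82 to 2.03% in FFD mice. The log2 ratio of mitochondrial to nuclear counts, which no scaling of libraries can change, was 1.60, 0.91, 0.92, 0.71 and 1.13 in CD mice 1 to 5 and 1.19, 1.61 and 1.69 (lowest, median and highest) in FFD mice. CD mouse 1 lay among the FFD mice, and the other CD mice lay below every FFD mouse. The mean was 1.05 ± 0.34 (SD, n = 5) in CD and 1.51 ± 0.22 (SD, n = 6) in FFD mice, a difference of 0.46 or 1.37-fold, and it is given as a description with no test. It was 0.59 without CD mouse 1 and 0.37 to 0.52 without any other mouse in turn. Complexes built from both genomes had mean differences in the ratio of the same sign. They were 0.48 for complex I, 0.37 for complex III, 0.39 for complex IV and 0.42 for complex V, and the diets overlapped in each. For complex III, where mt-Cytb is the only mitochondrial gene, CD mice 1 and 5 (1.07 and 0.577) lay above the lowest FFD mouse (0.384).

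**Figure D1:**
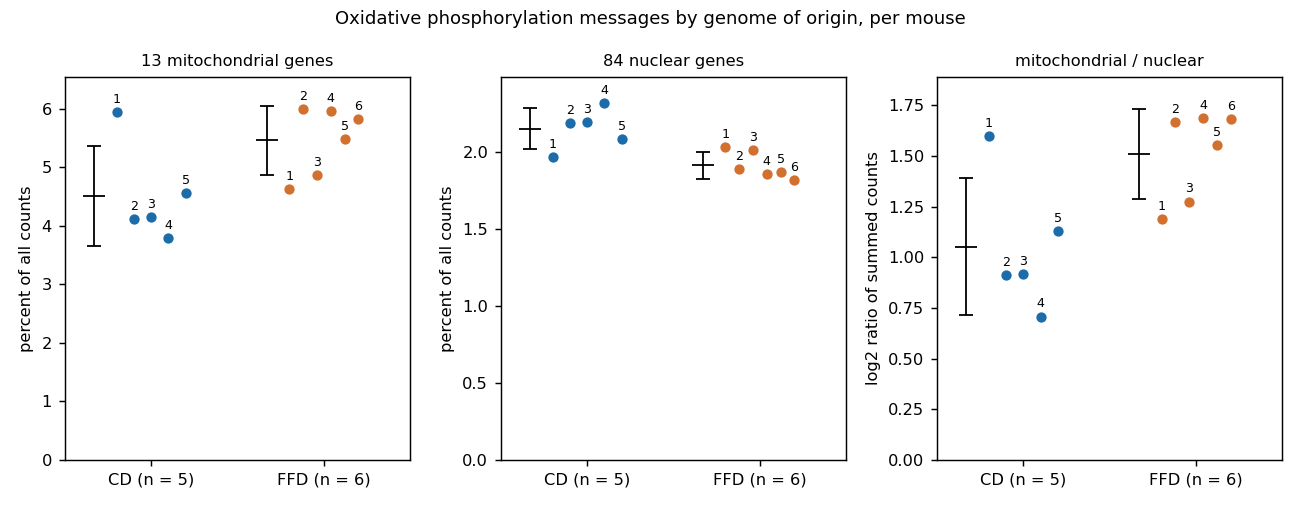
Share of all counts held by the 13 mitochondrial and the 84 nuclear genes (percent, left and middle) and the log2 ratio of their summed counts (right) in 5 CD and 6 FFD mice, each numbered point 1 mouse, with the mean and SD as a bar beside them. CD mouse 1 (1.60) lies within the FFD range of the ratio (1.19 to 1.69), and the other CD mice (0.71 to 1.13) lie below it.

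Of the 13 mitochondrial genes, 10 were called higher in FFD mice (76.9%, against 18.2% of all genes) and 0 lower by edgeR. All 13 had a positive log2 fold change, with a median of 0.42 (range 0.09 to 0.54) beside a median of -0.03 over all genes tested, and 12 had an unadjusted p under 0.05, all of them higher. DESeq2 called 12 and limma-voom 10, all higher. The count of 10 rests on the TMM scaling, since with total counts alone all but mt-Nd3 kept a positive value, the median was 0.26 against -0.19 for all genes, and 0 were called, though 7 had an unadjusted p under 0.05. No gene of the 13 separated the diets completely, beside 8.91% of all genes that were higher in every FFD mouse than in any CD mouse. CD mouse 1 was the highest of the CD mice for 12 of the 13 genes and CD mouse 4 the lowest for 13, while FFD mouse 1 or FFD mouse 3 was the lowest of the FFD mice for 12. Without CD mouse 1, the diets did not overlap for 7 of the 13 genes (11% of all genes then did so in this direction) and 12 were called. The number called fell to 3, 3 and 2 without CD mouse 2, 3 or 4 and to 3, 4, 5 and 4 without FFD mouse 2, 4, 5 or 6.

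**Figure D2:**
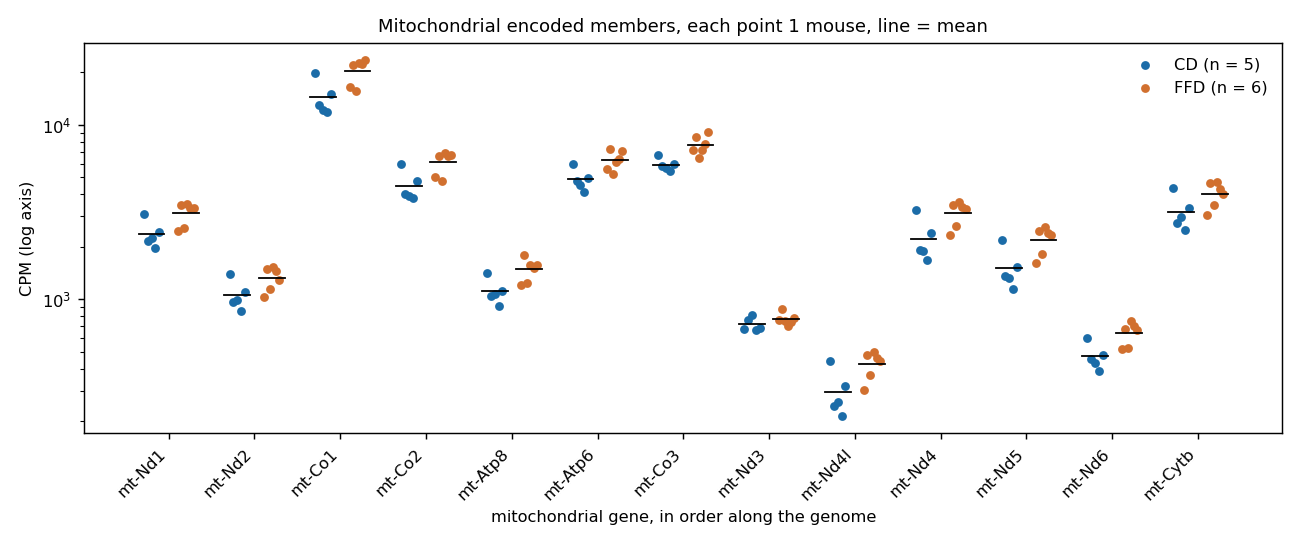
CPM on a log axis of the 13 mitochondrial genes in their order along the genome, each point 1 mouse (5 CD, 6 FFD) and each line the mean of a diet. The means of FFD mice lie above those of CD mice for every gene, most narrowly for mt-Nd3 (723 and 769 CPM).

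Complex IV, cytochrome c oxidase, has its catalytic core made in the mitochondrion from mt-Co1, mt-Co2 and mt-Co3, and all 3 genes rose. mt-Co1 carries the heme and copper centre where oxygen is reduced. It stood at 19795, 12915, 12245, 11832 and 15002 CPM in CD mice 1 to 5 and at 15539, 22196 and 23393 CPM (lowest, median and highest) in FFD mice. Apart from CD mouse 1, every CD mouse lay below every FFD mouse. The log2 fold change was 0.51 ± 0.16 (SE, adjusted p = 0.0277, edgeR). mt-Co2, which takes electrons from cytochrome c, stood at 3787 to 5972 CPM in CD and 4760 to 6865 CPM in FFD mice, with a log2 fold change of 0.44 ± 0.15 (adjusted p = 0.0317, edgeR). mt-Co3, a structural subunit of the core, stood at 6701, 5841, 5625, 5424 and 6002 CPM in CD mice 1 to 5 and at 6486, 7499 and 9100 CPM (lowest, median and highest) in FFD mice. Here the FFD range began just below CD mouse 1 and above the other CD mice. Its log2 fold change was 0.38 ± 0.11 (adjusted p = 0.0135, edgeR), the smallest p among the 13, and mt-Co3 and mt-Nd6 were the only mitochondrial genes called whichever single mouse was left out.

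Complex I, NADH dehydrogenase, has 7 mitochondrial subunits that form its proton pumping membrane arm, and 5 of them rose. mt-Nd5, which lies at the far end of that arm, had the largest change of the 13 at 0.54 ± 0.17 (adjusted p = 0.0245, edgeR). Its levels were 2198, 1355, 1322, 1141 and 1538 CPM in CD mice 1 to 5 and 1622, 2367 and 2605 CPM (lowest, median and highest) in FFD mice. mt-Nd4l rose by 0.53 ± 0.18 (adjusted p = 0.0351), mt-Nd4 by 0.49 ± 0.17 (0.0416) and mt-Nd1 by 0.39 ± 0.14 (0.0403), all log2 values of edgeR. mt-Nd6 is the single protein gene of the other strand. It stood at 604, 453, 431, 389.9 and 483 CPM in CD and 523, 675 and 749 CPM (lowest, median and highest) in FFD mice, with a log2 fold change of 0.44 ± 0.13 (adjusted p = 0.016, edgeR). CD mouse 1 alone again reached the FFD range. The genes called are thus annotated on both strands of the mitochondrial genome. Since reads of mt-Nd6 and of RNA antisense to it cannot be told apart, the call does not show which strand's RNA differed.

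mt-Nd2, mt-Nd3 and mt-Cytb did not pass the test. mt-Nd2, another membrane subunit of complex I, had a log2 value of 0.32 ± 0.14 (adjusted p = 0.0833), and mt-Cytb, the only mitochondrial subunit of complex III, one of 0.34 ± 0.15 (adjusted p = 0.0957, edgeR for both). mt-Nd3, a small complex I subunit next to mt-Co3 on the genome, stood at 678, 765, 815, 671 and 689 CPM in CD mice 1 to 5 and at 702, 756 and 879 CPM (lowest, median and highest) in FFD mice. The diets overlapped over most of their range, and the log2 value was 0.09 ± 0.08 (adjusted p = 0.401, edgeR), or -0.07 with total counts alone. Relative to the summed counts of the other 12 mitochondrial genes, mt-Nd3 had a log2 ratio of -5.84 ± 0.33 (SD, n = 5) in CD and -6.20 ± 0.22 (SD, n = 6) in FFD mice, and the diets overlapped, with CD mice 1 and 5 (-6.35 and -5.98) below the highest FFD mouse (-5.93). This ratio was chosen after its values were seen and was not tested.

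Complex V, ATP synthase, takes mt-Atp6 and mt-Atp8 from the mitochondrial genome, and both rose. mt-Atp6 forms the channel through which protons reach the rotor. It stood at 4142 to 5958 CPM in CD and 5264 to 7315 CPM in FFD mice, with a log2 fold change of 0.37 ± 0.12 (adjusted p = 0.0271, edgeR). mt-Atp8, whose reading frame overlaps that of mt-Atp6, stood at 916 to 1419 CPM in CD and 1205 to 1801 CPM in FFD mice, with a log2 fold change of 0.42 ± 0.13 (adjusted p = 0.0224, edgeR).

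Other RNAs of the mitochondrial genome were read in the same fit. The libraries were enriched for poly(A) RNA, so these counts need not reflect the levels of ribosomal RNAs and tRNAs, and the share captured was not measured. The ribosomal RNAs held on average 0.26% of counts in CD and 0.39% in FFD mice, beside 4.51 and 5.46% for the 13 messages. Both ribosomal RNAs rose, with larger log2 fold changes than any of the 13 messages, 0.66 ± 0.15 for mt-Rnr1 of the small subunit (adjusted p = 0.00454) and 0.76 ± 0.15 for mt-Rnr2 of the large subunit (adjusted p = 0.00315, edgeR for both). With total counts alone they had 0.49 and 0.59 and were still called. mt-Rnr2 stood at 2333, 1956, 1725, 1827 and 1935 CPM in CD mice 1 to 5 and 2161, 3548 and 4161 CPM (lowest, median and highest) in FFD mice, and FFD mouse 3 was the single FFD mouse within the CD range. Of the 22 tRNA genes, 6 had enough counts to be tested. Of these, 0 were called by edgeR, DESeq2 or limma-voom and 0 had an unadjusted p under 0.05 in edgeR, with log2 values from -0.26 for mt-Tg to 0.22 for mt-Tc.

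Among nuclear members, 78 of 84 had enough reads to be tested, and their levels differed little between the diets. Their median log2 fold change was -0.03, beside -0.03 over all genes tested. Of the 78, 2 were called higher, 11 lower and 65 did not pass the test, so 16.7% were called against 36.8% of all genes, and 72 had a log2 value between -0.25 and 0.25. The only nuclear member whose diets did not overlap was Uqcrc2, a core subunit of complex III, at 470 to 486 CPM in CD and 493 to 544 CPM in FFD mice, beside 18.5% of all genes without overlap. Its log2 value of 0.11 ± 0.05 did not pass the test (adjusted p = 0.118, edgeR) and was -0.04 with total counts alone. DESeq2 called it at an adjusted p of 0.00308. Total counts alone gave 0 higher and 40 lower nuclear members, with a median of -0.18, and the median of all genes then lay at -0.19 with 10.9% called higher and 32.3% lower. The number called lower fell to 3, 5, 4 and 6 without CD mouse 2, 3, 4 or 5 and to 6, 7 and 5 without FFD mouse 2, 4 or 5. The number called higher was 5 without FFD mouse 3 and 1 without any of CD mouse 3, FFD mouse 5 and FFD mouse 6.

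**Figure D3:**
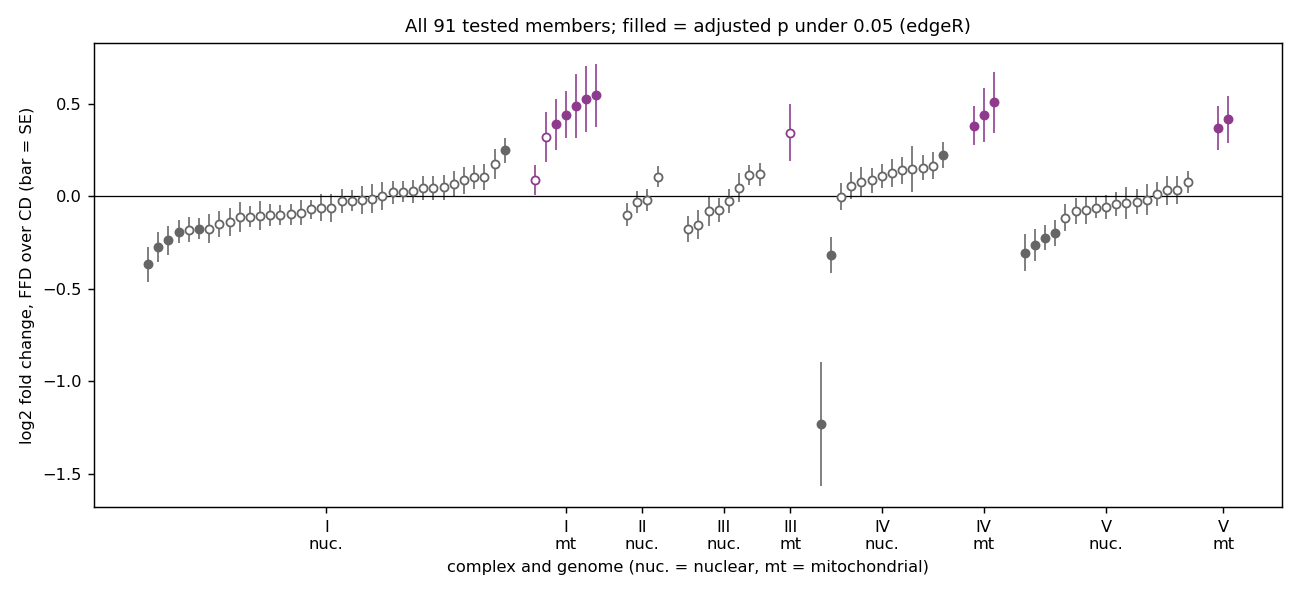
Log2 fold change of FFD over CD with its SE for the 91 tested members, ordered within complex and genome, filled where the adjusted p was under 0.05. The 13 mitochondrial genes lie at 0.09 to 0.54, and the nuclear genes other than Cox6b2 lie between -0.37 and 0.25.

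Nuclear members that fell belonged to complexes I, IV and V, and those of complexes II and III did not pass the test. Complex I by symbol had 36 nuclear members tested, of which Ndufa6 rose and 5, Ndufa4 among them, fell. Of all genes, 18.2% were called higher and 18.6% lower. Neither share is larger in this complex, so the counts are no result about it. Ndufs7, Ndufs8 and Ndufv1 carry iron-sulfur clusters of the hydrophilic arm, along which electrons from NADH travel. Ndufs8 stood at 97.2, 122, 119, 136 and 118 CPM in CD mice 1 to 5 and at 87.0, 98.5 and 107 CPM (lowest, median and highest) in FFD mice. CD mouse 1 lay within the FFD range and the other CD mice above it. The log2 fold changes were -0.27 ± 0.08 for Ndufs8 (adjusted p = 0.0193), -0.24 ± 0.08 for Ndufs7 (0.029) and -0.19 ± 0.06 for Ndufv1 (0.0301, edgeR). Ndufs1 and Ndufv2, which also carry such clusters, were not called. Their log2 values were slightly positive, at 0.025 and 0.0855 (adjusted p = 0.751 and 0.383, edgeR). The accessory subunit Ndufa10 fell by 0.18 on the log2 scale (adjusted p = 0.0285, edgeR).

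Ndufa4 had the largest fall among well expressed members. Its symbol places it in complex I, and its protein is now known to be a subunit of complex IV. It stood at 145, 189, 191, 200.0 and 160 CPM in CD mice 1 to 5 and at 116, 142 and 148 CPM (lowest, median and highest) in FFD mice. Again CD mouse 1 lay within the FFD range. The log2 fold change was -0.37 ± 0.09 (adjusted p = 0.00878, edgeR), and it was called whichever mouse was left out. Ndufa6, a small accessory subunit of complex I, moved the other way. It stood at 121, 138, 125, 139.8 and 143 CPM in CD mice and 143, 159 and 168 CPM (lowest, median and highest) in FFD mice, where FFD mouse 3 (142.7 CPM) and CD mouse 5 (143.3 CPM) met. The log2 fold change was 0.25 ± 0.07 (adjusted p = 0.0106, edgeR), and no single mouse removed the call.

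Of the nuclear members placed in complex IV by symbol, which leaves out Ndufa4 and includes Cox7a2l, 10 of 13 tested had a positive log2 value. The 13 had a median of 0.11, beside medians by symbol of -0.06 for complex I, -0.02 for II, -0.05 for III and -0.06 for V. With total counts alone the values of Cox5a, Cox6a1, Cox6b1, Cox7a2 and Cox8a turned slightly negative. That list covers only members chosen for naming. Cox5b (0.12) and Cox7c (0.11) were also positive but were not among them, and their sign with total counts alone is not given here. The positive lean of this complex therefore depends on the scaling. Only Cox6c, a small accessory subunit, was called higher, at 236, 268, 236, 262 and 260.0 CPM in CD and 267, 289 and 325 CPM (lowest, median and highest) in FFD mice. CD mouse 2 and FFD mouse 3 met at the border of the diets. The log2 fold change was 0.22 ± 0.07 (adjusted p = 0.0283, edgeR), and the gene shares 250 exonic bases with Vps13b on the opposite strand. Cox7a2l, which is not a subunit of the complex IV monomer, fell by 0.32 on the log2 scale (SE 0.10, adjusted p = 0.0226, edgeR). It stood at 177 to 247 CPM in CD and 143 to 191 CPM in FFD mice.

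Complex IV also has alternative subunits, and the ubiquitous form was dominant in each pair. Cox4i1 held 99.98% of Cox4i counts in CD and 99.97% in FFD mice, and Cox4i2, a form induced by low oxygen, had 44 counts over all 11 mice. The muscle forms Cox6a2 and Cox8b had 9 and 64 counts and were not tested, nor were Cox7b2 (54 counts), Cox8c (0 counts) and Ndufa4l2 (6 counts). Cox7a1, the heart and muscle form, was the exception, with 6.92 ± 0.97% of Cox7a1 and Cox7a2 counts in CD (SD, n = 5) and 6.99 ± 1.47% in FFD mice (SD, n = 6). It stood at 12.5 to 17.6 CPM in CD and 12.5 to 20.5 CPM in FFD mice with no call, while the muscle genes Ckm and Myh6 had 10 and 23 counts in all. Cox6b2, a form known from testis, was called lower but rests on 125 counts in all. It stood at 0.72, 0.94, 0.49, 0.79 and 0.38 CPM in CD and 0.10, 0.27 and 0.44 CPM (lowest, median and highest) in FFD mice, with a log2 fold change of -1.23 ± 0.34 (adjusted p = 0.0128, edgeR).

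In complex V, 4 of 17 nuclear members fell and 0 rose in edgeR, beside 18.6% of all genes lower and 18.2% higher. DESeq2 and limma-voom gave the same counts, and 0 were higher at an unadjusted p under 0.05 in edgeR. Atp5s and Atp5sl, which are not subunits of the enzyme, are among the 4. The share called lower is near that of all genes, so the count is no result about complex V. The c-ring, the rotor that protons turn, is made of a single protein encoded by 3 genes, Atp5g1, Atp5g2 and Atp5g3, which differ only in the leader that is cut off. Atp5g2 stood at 192, 241, 219, 234 and 209 CPM in CD mice 1 to 5 and 176, 184 and 200.1 CPM (lowest, median and highest) in FFD mice, with CD mouse 1 alone within the FFD range. The log2 fold change was -0.22 ± 0.07 for Atp5g2 (adjusted p = 0.0225) and -0.20 ± 0.07 for Atp5g1 (adjusted p = 0.0453, edgeR), and the Atp5g1 call was lost in 9 of the 11 fits that left out a single mouse. Atp5g3 had a log2 value of 0.01 ± 0.07 (adjusted p = 0.904), which was -0.14 with total counts alone and changed sign without CD mouse 1 or FFD mouse 5 (-0.01 each).

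Counts within the c-ring set gave shares that do not depend on scaling. Atp5g3 held 57.2, 55.1, 56.7, 55.5 and 57.4% of the 3 genes' counts in CD mice 1 to 5 and 57.9, 60.2 and 62.2% (lowest, median and highest) in FFD mice, so that the diets did not overlap. Atp5g1 held 24.0 to 25.4% in CD mice and 21.6 to 23.9% in FFD mice, again without overlap. Atp5g2 held 18.3 to 20.8% in CD mice and 16.2 to 19.0% in FFD mice, which overlapped. Atp5s and Atp5sl, which match the Atp5 prefix but are not subunits of the enzyme, fell by 0.30 and 0.26 on the log2 scale (adjusted p = 0.0287 and 0.0324, edgeR). Atp5a1 and Atp5b, which encode the alpha and beta subunits, were not called, with log2 values of -0.04 and -0.03.

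**Figure D4:**
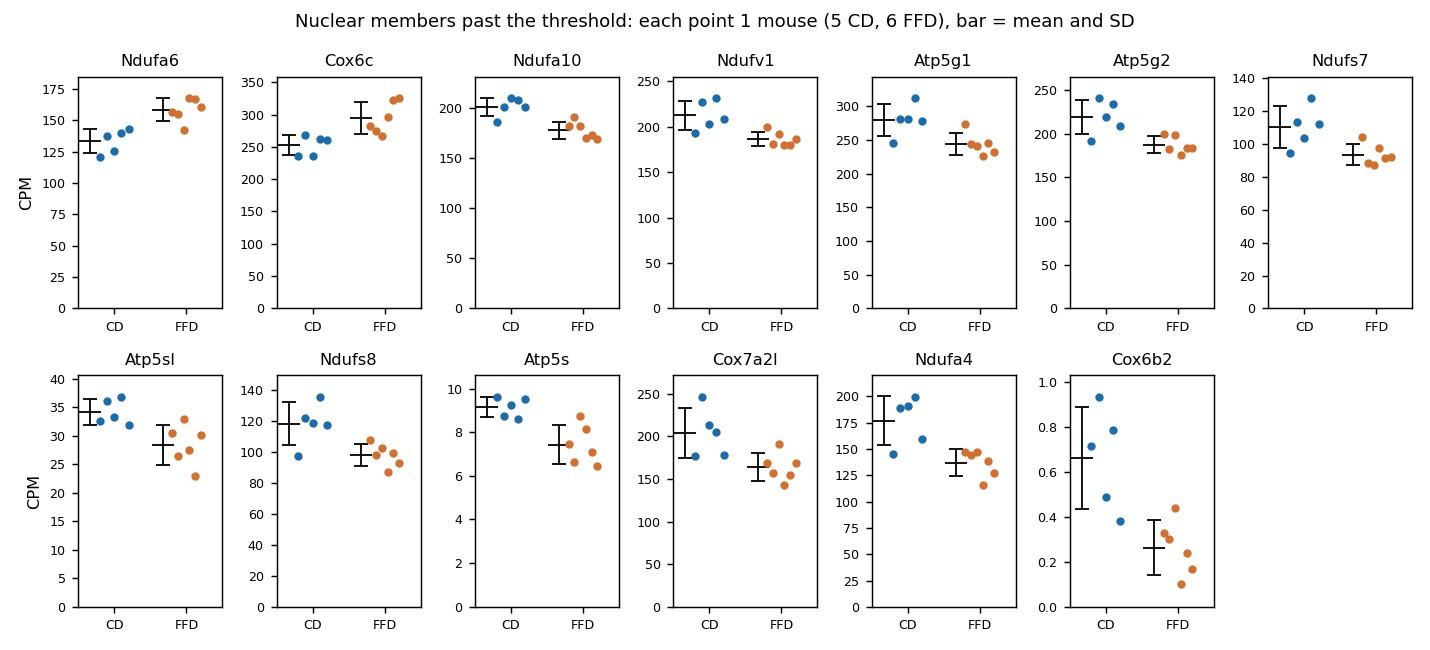
CPM of the 13 nuclear members past the threshold, each point 1 mouse (5 CD, 6 FFD) with the mean and SD of each diet beside it and axes that start at 0. Ndufa6 and Cox6c are higher in FFD mice and the other 11 lower, and the diets overlap for every gene.

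Complex II, succinate dehydrogenase, links the respiratory chain to the citric acid cycle, and 0 of its 4 genes were called by edgeR or reached an unadjusted p under 0.05 (log2 values -0.10 for Sdhd, -0.03 for Sdhb, -0.02 for Sdhc and 0.11 for Sdha). DESeq2 called 1 of the 4 higher. Complex III had 0 of 8 nuclear members called and 1, lower, at an unadjusted p under 0.05, with values from -0.18 for Uqcrc1 (adjusted p = 0.0637, edgeR) to 0.12 for Uqcrb. CD mouse 1 also bore on the overlap among nuclear members. Without it, the diets did not overlap for 12 of the 78 nuclear members with FFD lower, 6 of them called, against 12.2% of all genes without that mouse and 9.59% with all mice, and for 2 with FFD higher, against 11% of all genes.

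Levels per kilobase of annotated exons put the genomes far apart. The 13 mitochondrial genes took the first 13 places among the members, from 11430.1 CPM per kb for mt-Co1 to 1036 CPM per kb for mt-Nd5, as means over all mice. Atp5o and Atp5sl, which could not be matched to a single annotated gene, have no place in this order. The highest nuclear members in it were Cox6a1 at 702 and Cox8a at 695 CPM per kb, followed by Atp5a1 at 544 and Atp5b at 540.4 CPM per kb. Exons of all annotated transcripts were summed, so a gene with a long rare transcript comes out low on this scale.

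Genes with near-identical copies were checked, since no source used here says how reads with several matching places were counted. Annotated copies identical to mt-Atp6, mt-Co2, mt-Co3 and mt-Nd4l (Gm10925, Gm28661, Gm28437 and Gm10222) over the aligned coding bases, and Gm28439, identical to 876 of the 1378 bases of mt-Nd4, had 0 counts, and the copy with the most reads, Gm29216 of mt-Co1, had 102 against 4386592. Among nuclear members, Gm11273 held 7.49% as many counts as Cox5b, Gm12251 held 2.97% as many as Ndufs3 and 4930481A15Rik held 2.17% as many as Uqcr10. Every other copy in the table held at most 0.188%.

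Genes that build and serve the respiratory chain were described from 6 further lists, chosen with results of these data known. The mitochondrial ribosome translates the 13 mitochondrial messages. Of its 78 genes, 54 fell, 1 rose and 23 did not pass the test, so 70.5% were called against 36.8% of all genes, with a median of -0.29 beside -0.03 over all genes. With total counts alone 72 fell and 1 rose, beside 32.3% of all genes lower and 10.9% higher. Mrps9 of the small subunit stood at 51.8, 53.2, 61.7, 58.1 and 53.9 CPM in CD mice 1 to 5 and 35.2, 40.5 and 46.8 CPM (lowest, median and highest) in FFD mice, with no overlap and a log2 fold change of -0.45 ± 0.08 (adjusted p = 0.00191, edgeR). Mrpl34 and Mrps26 fell by 0.45 and 0.47 on the log2 scale. Mrps6 was the one gene that rose, by 0.49 ± 0.08 (adjusted p = 0.00155, edgeR), with 52.6 to 68.7 CPM in CD and 70.0 to 90.9 CPM in FFD mice.

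The machinery that copies, transcribes and processes the mitochondrial genome moved the same way as its ribosome. Of 32 genes tested, 16 fell, 0 rose and 16 did not pass the test. The called share was 50% against 36.8% of all genes, and the median was -0.32 beside -0.03 over all genes. None of the 32 rose by DESeq2 or limma-voom or at an unadjusted p under 0.05 in edgeR. With total counts alone 24 fell, beside 32.3% of all genes lower. Trmt10c, a subunit of the enzyme that cuts tRNAs out of the long transcript, stood at 31.3, 34.0, 34.3, 34.1 and 35.0 CPM in CD mice 1 to 5 and 20.7, 23.8 and 26.2 CPM (lowest, median and highest) in FFD mice. The diets did not overlap, and the log2 fold change was -0.51 ± 0.07 (adjusted p = 0.000863, edgeR). Its partner Hsd17b10 fell by 0.40, the replicative helicase gene Twnk by 0.57 and Ssbp1, which coats single-stranded mitochondrial DNA, by 0.42 on the log2 scale. Chosen after their values were seen, Polrmt, the RNA polymerase of mitochondria, fell by 0.34 and Tfam, which packs the DNA and starts transcription, by 0.35 on the log2 scale (adjusted p = 0.00848 and 0.00376, edgeR).

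Assembly factors had 3 genes higher and 14 lower of 47 tested, with a median of -0.13. The called share of 36.2% is near the 36.8% of all genes, so the count is no result about this list. With total counts alone 0 were higher and 29 lower, beside 32.3% of all genes lower. Sco2, which delivers copper to mt-Co2, stood at 6.45 to 8.18 CPM in CD and 2.62 to 5.57 CPM in FFD mice, a log2 fold change of -0.77 ± 0.16 (adjusted p = 0.00375, edgeR). Ndufaf6 and Ecsit of complex I assembly fell by 0.51 and 0.30 and Sdhaf1 of complex II assembly by 0.34 on the log2 scale, each without overlap between the diets. The 3 genes that rose were Sco1, Cox11 and Cox17, with log2 fold changes of 0.25, 0.30 and 0.31. They are known to handle copper for complex IV, as are Cox19 and Coa6, which fell by 0.26 and 0.36 on the log2 scale, and these 5 genes were named after their values were seen.

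Regulators of mitochondrial biogenesis had 5 genes higher and 2 lower of 18 tested, a called share of 38.9% near the 36.8% of all genes, and with total counts alone 1 higher and 4 lower. Ppard, a nuclear receptor for fatty acids, stood at 211 to 233 CPM in CD and 253 to 317 CPM in FFD mice, with a log2 fold change of 0.36 ± 0.07 (adjusted p = 0.00253, edgeR). Prkaa2, a catalytic subunit of the energy sensor AMPK, rose by 0.35 ± 0.08 and Esrra, a receptor that acts with PGC-1 coactivators, by 0.31 ± 0.08 on the log2 scale. Pprc1, a coactivator of the same family, fell by 0.51 on the log2 scale, with 46.2 to 56.6 CPM in CD and 29.9 to 43.5 CPM in FFD mice. The gene of NRF1, whose letters were searched in the promoters, also fell, by 0.23 on the log2 scale (adjusted p = 0.0218, edgeR).

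The citric acid cycle list had 3 genes higher and 4 lower of 17 tested, a called share of 41.2% near the 36.8% of all genes, and 1 higher and 10 lower with total counts alone. Cs, which makes citrate at the start of the cycle, stood at 519 to 559 CPM in CD and 581 to 735 CPM in FFD mice, a log2 fold change of 0.27 ± 0.07 (adjusted p = 0.0103, edgeR). Ogdh, of the oxoglutarate dehydrogenase complex, rose by 0.34, while Idh3g of isocitrate dehydrogenase and the fumarase gene Fh1 fell by 0.28 and 0.23 on the log2 scale.

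Electron carriers and nucleotide exchange had 5 genes higher and 7 lower of 33 tested, a called share of 36.4% beside 36.8% of all genes, and 3 higher and 14 lower with total counts alone. Gpd2, which passes electrons from glycerol phosphate to ubiquinone, stood at 59.5 to 73.2 CPM in CD and 82.0 to 129 CPM in FFD mice, a log2 fold change of 0.60 ± 0.11 (adjusted p = 0.00217, edgeR). Dhodh, which does the same from pyrimidine synthesis, fell by 0.74 ± 0.14 (adjusted p = 0.00205, edgeR), with 14.3 to 16.9 CPM in CD and 6.86 to 11.8 CPM in FFD mice. Slc25a4, an ADP/ATP carrier of the inner membrane, fell by 0.89 and Pdss1, of ubiquinone synthesis, by 0.25 on the log2 scale, each without overlap. Chosen after its values were seen, Cycs, which encodes cytochrome c, the carrier between complexes III and IV, stood at 85.3 to 109 CPM in CD and 103 to 172 CPM in FFD mice, a log2 fold change of 0.46 ± 0.11 (adjusted p = 0.00828, edgeR).

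**Figure D5:**
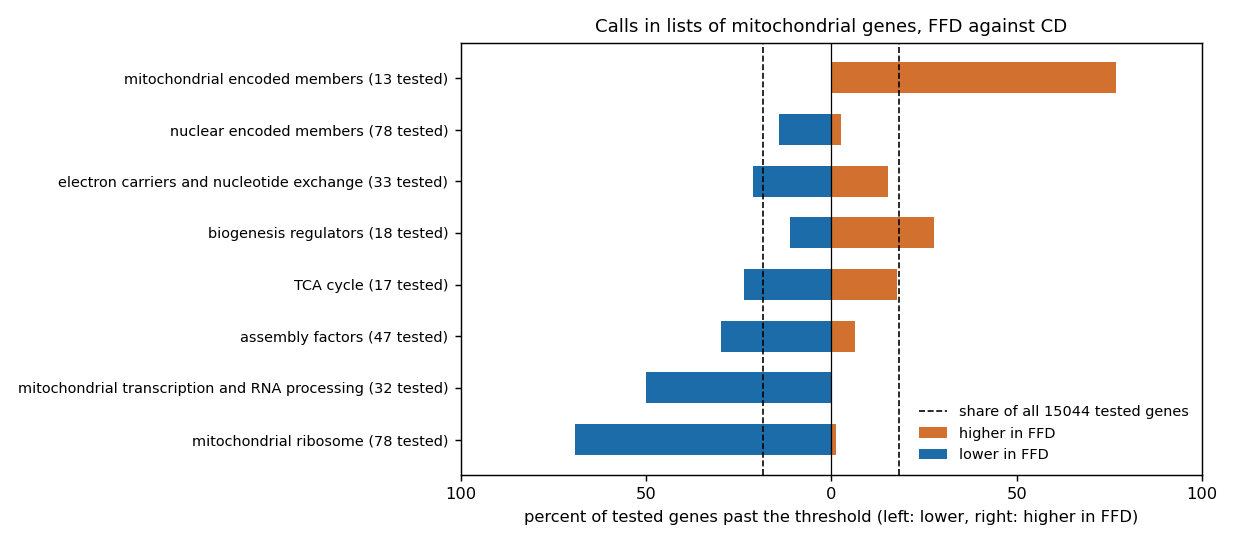
Percent of the tested genes of each list called higher (right) or lower (left) in FFD mice, with dashed lines at the share of all 15044 tested genes (18.2 and 18.6%). The mitochondrial genes lie to the right of the line and the mitochondrial ribosome and the transcription and RNA processing list to the left.

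Other measures moved with the diets in the same libraries. The share of counts from cytosolic ribosomal protein genes was 4.29 to 5.81% in CD mice and 2.68 to 4.13% in FFD mice without overlap, and CD mouse 1 had the lowest share in CD. Markers of absorptive colonocytes summed to 4862 to 7302 CPM in CD and 9011 to 16074 CPM in FFD mice (4 of 6 genes called higher), and goblet markers to 3987 to 8633 CPM in CD and 9966 to 15984 CPM in FFD mice (4 of 5 higher). The 6 markers of the colonic epithelium as a whole summed to 7834 to 9382 CPM in CD and 9301 to 12768 CPM in FFD mice (6 of 6 higher). Enteroendocrine markers summed to 94.9 to 184 CPM in CD and 177 to 299.6 CPM in FFD mice, and tuft markers to 7.71 to 14.0 and 11.7 to 24.5 CPM (2 of 2 higher for each). Markers of stem and dividing cells summed to 554 to 769 CPM in CD and 248 to 577 CPM in FFD mice (3 of 5 lower). Macrophage and monocyte markers summed to 14.1 to 19.6 CPM in CD and 15.2 to 26.4 CPM in FFD mice (0 of 7 called), and neutrophil markers to 1.12 to 4.43 and 3.16 to 11.7 CPM (1 of 3 tested higher). Fibroblast markers stayed below 1 CPM in every mouse. The part of these measures in the differences above was not tested.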

How the data were processed

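The data are 11 libraries, 5 from CD and 6 from FFD mice. To obtain colonic epithelial cells the authors shook tissue in DTT and EDTA and used a Percoll gradient. They enriched poly(A) RNA, made NEBNext Ultra II libraries, mapped single reads to GRCm38 with the CLC Workbench and deposited a raw count for each gene and mouse. FastQC, DESeq2 1.22.2 and R 3.5.1 stand in the submitters' processing notes. The annotation release, strand setting and multi-mapping rule were not given in the sources used.

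In edgeR 4.0.16 (R 4.3.3), filterByExpr with a minimum count of 10 and a minimum total of 15 kept 15044 genes. Libraries were scaled by TMM (factors 1.03 to 1.08 in CD, 0.893 to 1.05 in FFD mice), and diet was the only term of the quasi-likelihood test, with Benjamini-Hochberg adjustment over all genes kept. The procedure was tested on simulated counts. P-values measure the spread between these mice, and no pair of mice of a diet agreed within counting noise (lowest chi-square over its degrees of freedom, 13). Names were matched to GENCODE M21 (91.4% of the table, 95 of 97 members once). Copies were sought in coding sequences at 95% identity over 100 bases. DESeq2 1.42.0, limma-voom (limma 3.58.1), DESeq2 size factors, no TMM, mitochondrial genes left out of library sizes, no filter, a filter of 1 CPM in 5 mice, a replicate block and leaving out each mouse were run as alternatives.

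The members and lists were chosen with earlier results of these data known. Named genes are all mitochondrial members, the 20 smallest p and the 5 largest rises and falls of nuclear members, called members that move against their complex, fixed sets of isoforms, and up to 4 genes with the smallest p of each other list. Nrf1, Polrmt, Tfam, Sco1, Cox11, Cox17, Cox19, Coa6, Cycs, Ndufs1, Ndufv2 and members named for their complex only were chosen after their values were seen.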

Additional observations from a re-analysis of the deposited data

How the results depend on the processing

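The log2 ratio of mitochondrial to nuclear counts kept its direction in every alternative run for it, at 0.37 to 0.59 with each mouse left out, 0.45 without members that are no subunits and 0.60 as a median over genes. Counts of calls depended on the scaling and on single mice. Without TMM, 0 nuclear members were called higher and 40 lower, 0 mitochondrial members higher, and 6 genes of the other lists higher and 153 lower (17 and 97 with TMM), and the nuclear median was -0.18. Without a filter, 1 nuclear member was called higher and 4 lower, and DESeq2 called 6 higher. With each mouse left out, 1 to 5 nuclear members were called higher, 3 to 14 lower and 2 to 12 mitochondrial members higher. The medians ran from -0.05 to 0.00 for nuclear and 0.35 to 0.53 for mitochondrial members. The numbers in the labels do not pair the mice, with correlations of deviations of -0.208, -0.281, 0.202, -0.293 and 0.278 for numbers 1 to 5. With the replicate block, in which FFD mouse 6 has no partner, 1 nuclear member was called higher and 1 lower, 0 mitochondrial members higher, and 11 genes of the other lists higher and 64 lower. Signs were compared for named members only. They turned without TMM for Atp5g3 (-0.14), Cox6a1 (-0.075), Cox6b1 (-0.10), Uqcrc2 (-0.040), Cox5a (-0.0027), Cox7a2 (-0.0175), Cox8a (-0.071) and mt-Nd3 (-0.066). They also turned for Atp5g3 without CD mouse 1 or FFD mouse 5 (-0.0141 to 0.043 over single mice left out). Cox4i1 (-0.0038 in the report's fit) had 0.0144 with DESeq2 or its size factors, 0.0024 with mitochondrial genes left out of library sizes, and -0.025 to 0.044 over single mice left out, positive without CD mouse 2, 4 or 5 or FFD mouse 2, 3 or 4. Ndufa4, Ndufa6, mt-Co3 and mt-Nd6 kept the call in all 11 fits with a mouse left out, as did Cox6b2 in the 10 of them that tested it. Of the 23 named members called, 0 kept the call in every alternative that tested them (17 to 19 a gene). Causes were not tested. The 6 nuclear members that were not tested had 0 to 64 counts over all mice, and a difference in them was not detectable at this depth.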
